A study of Homo sapiens with 6 samples.

Results

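The 9 genes described here are the androgen-driven genes that supply the 5′ end of prostate cancer gene fusions (TMPRSS2, SLC45A3, NDRG1 and ACSL3) and 5 genes of the ETS family of transcription factors (ERG, ETV1, ETV4, ETV5 and ELK4). Members were the probe sets whose only gene symbol in the platform annotation is one of these names. This gave 41 of 45253 single-symbol probe sets and 8 of 18239 genes, since ACSL3 is not analysed here. RNA of LNCaP cells, an established human prostate adenocarcinoma line, was hybridised to 6 U219 arrays of Affymetrix after growth in F12 medium with serum. The control group holds 3 arrays of cells titled as untreated, for which the treatment protocol names saline, and the other group holds 3 arrays of cells kept for 24 h with 40 µM urolithin A, a compound that gut bacteria make from dietary ellagitannins. All arrays come from this single line, and no label states separate cultures within a group, so a p-value here reflects array-to-array spread alone, and that spread may be technical. The question was how these transcripts differ after the exposure.

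In prostate cancer, a rearrangement often joins the promoter region of an androgen-induced gene to the coding part of an ETS gene, and the ETS factor is then made under androgen control. TMPRSS2 joined to ERG is the best known case, and SLC45A3, NDRG1 and ACSL3 are other genes that lend their 5′ end. ETS factors bind DNA at a GGAA core, and ETV1, ETV4 and ETV5 form the PEA3 subfamily, which acts downstream of ERK signalling. LNCaP cells are known for a different lesion, in which the whole ETV1 gene lies inserted within the MIPOL1 locus. The line is also known for a chimeric RNA that runs from SLC45A3 into ELK4, its neighbour on the same strand.

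Both genes of that neighbouring pair and ETV1 were lower after urolithin A, as described later, so the 250 bases before their annotated starts are shown (RefSeq, GRCh38.p14, all on the minus strand and written along the gene). The windows are chr1:205680510-205680759 for SLC45A3, chr1:205632012-205632261 for ELK4 and chr7:13990703-13990952 for ETV1. Capitals mark 6 letters of an androgen response element (AGAACA, or TGTTCT on the other strand) and 8 letters of an ETS site (CCGGAAGT, or ACTTCCGG on the other strand).
SLC45A3: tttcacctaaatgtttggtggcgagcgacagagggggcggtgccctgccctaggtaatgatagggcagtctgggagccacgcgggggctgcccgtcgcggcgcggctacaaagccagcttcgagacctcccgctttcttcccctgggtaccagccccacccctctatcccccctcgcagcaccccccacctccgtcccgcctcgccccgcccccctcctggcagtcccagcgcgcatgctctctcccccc
ELK4: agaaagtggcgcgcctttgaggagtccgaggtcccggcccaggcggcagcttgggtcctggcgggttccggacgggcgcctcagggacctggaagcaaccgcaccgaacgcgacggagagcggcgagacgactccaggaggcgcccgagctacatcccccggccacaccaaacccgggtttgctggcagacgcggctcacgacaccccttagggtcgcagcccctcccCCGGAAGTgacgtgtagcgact
ETV1: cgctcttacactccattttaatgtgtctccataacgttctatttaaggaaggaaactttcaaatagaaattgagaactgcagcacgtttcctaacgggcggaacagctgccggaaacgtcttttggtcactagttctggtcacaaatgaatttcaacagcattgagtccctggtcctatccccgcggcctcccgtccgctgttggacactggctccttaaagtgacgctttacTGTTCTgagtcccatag
The ELK4 window holds the ETS letters, starting 22 bases before the start, as do 3.42% of 35116 windows of this length. The ETV1 window holds the androgen element letters, starting 17 bases before the start, as do 12.4% of all windows. RefSeq lists 6 starts for ETV1, and 2 of the 6 windows, which overlap, hold these letters. The window printed is 1 of these 2, and the other ETV1 windows hold neither motif. The share of 12.4% is per window, and a gene with 6 windows is more likely to hold the letters in some window. Neither motif was found in the SLC45A3 window. Both strands were searched, and neither motif lies within the other. Windows of ERG and ACSL3 held neither. Those of TMPRSS2, NDRG1, ETV4 and ETV5 were not searched, although TMPRSS2 and NDRG1 were also lower after urolithin A.

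Values below are on the log2 scale, with each probe set's median over the 3 control arrays at 0, so that a difference of 1 is a 2-fold change, and levels of genes cannot be read or compared. The identity of the cells could therefore not be checked through the level of luminal markers. A gene's value is the mean of its probe sets, and a change is the urolithin A mean minus the control mean, tested with limma and called at a Benjamini-Hochberg adjusted p under 0.05 over all 18239 genes. The number of arrays limits the precision. Among the 8 measured members 5 fell and 0 rose by limma, and the other 3 had unadjusted p of 0.295 or more. Of all genes 10.2% changed, 5.31% downwards and 4.85% upwards. With a minimum of 1.5-fold, 4 members fell, beside 2.46% of all genes changed (1.48% lower, 0.981% higher). In 5 members all urolithin A arrays lay below all controls, which held for 13.7% of genes, while 15.6% lay above and 29.3% on either side. All 3 measured fusion partner genes fell (median log2 change -1.31), and 2 of 5 ETS genes fell (median -0.09), beside a median of 0.01 over all genes. These counts describe genes chosen with earlier results of these data known.

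Some arrays differed in immune marker signal and in ribosomal RNA. Of 5 immune cell markers 0 passed by limma, also at an unadjusted p under 0.05, with changes from -0.01 to 1.07, and PTPRC had the smallest p (log2 change 0.28, adjusted p = 0.208). The highest change was that of HLA-DRA, which lay at 1.01 in control replicate 1, at 1.17 and 3.09 in urolithin A replicates 2 and 3, and near 0 in the other arrays. The 18S ribosomal RNA probe sets were lowest in control replicate 3 (-0.45) and urolithin A replicate 3 (-0.48). Of 4 basal and 3 neuroendocrine markers 0 passed by limma, also unadjusted, led by KRT15 (-0.15) and ENO2 (0.38). Of 6 stromal markers VIM alone passed. Of 6 luminal markers 1 fell, KLK3 (log2 change -0.98), and 1 rose, FOLH1 (0.31). The FOLH1 call was not kept by 4 of the 6 fits lacking 1 array. All FOLH1 probe sets carry names that mark sequence shared with other transcripts. The calls of TMPRSS2, SLC45A3, NDRG1 and ELK4 held both without the arrays of highest HLA-DRA (control replicate 1 and urolithin A replicate 3) and without those of lowest 18S RNA (control replicate 3 and urolithin A replicate 3). Those of ETV1 and, among the other genes named, of ELF3, DDX5, CREBBP, DET1, USP9X, CRISP3, VIM, FAM3B, NDRG3, TMPRSS11E and FOLH1 held in neither refit, with adjusted p from 0.0532 (ELF3) to 0.258 (CREBBP).

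TMPRSS2, a serine protease of the cell surface, showed the deepest fall of the members. Its control arrays lay at -0.10, 0.00 and 0.40 and its urolithin A arrays at -2.20, -1.64 and -1.79. The groups were far apart, with control replicate 3 the highest and urolithin A replicate 1 the lowest array. The change was -1.98 on the log2 scale (SE 0.17, 95% interval -2.35 to -1.60, adjusted p = 0.000451), which leaves 25.4% of the control value, and it was the 8th lowest of all 18239 changes. Each of its 3 probe sets fell, with log2 changes of -1.90, -1.83 and -2.21. None of them differed from the others of the gene by limma's diffSplice (smallest adjusted p = 0.588), which tests each probe set against the rest of its gene and called 4.84% of all probe sets tested (2.31% as lower and 2.53% as higher than the rest). It counts a gene's probe sets as independent, although all were read on the same arrays. The diffSplice p-values may therefore be too small. Without control replicate 1 and urolithin A replicate 3, the arrays of highest HLA-DRA in each group, the change was -2.12.

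SLC45A3, also called prostein, is a transporter-like membrane protein of prostate cells. Its values were 0.21, -0.45 and 0.08 in the controls and -1.43, -1.29 and -1.37 after urolithin A. The control arrays spread over a wider range than the treated ones (SD 0.35 against 0.07, n = 3 each), with control replicate 2 the lowest, and the groups did not overlap. The 2.48-fold fall of SLC45A3 was -1.31 on the log2 scale (SE 0.15, adjusted p = 0.00173). Both of its probe sets fell, with log2 changes of -1.40 and -1.22. The low array was the same in both, as control replicate 2 read -0.37 and -0.54 there.

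NDRG1, a gene induced by androgen, hypoxia and differentiation, had control values of 0.02, -0.13 and 0.17 and urolithin A values of -1.02, -1.03 and -0.93. The treated arrays lay within a narrow band well below the controls. The change of -1.01 (SE 0.09, adjusted p = 0.000459) is a 2.01-fold fall. All 6 of its probe sets fell, with changes from -1.39 to -0.58. The smallest change was that of 11753233_x_at, whose difference from the other probe sets did not pass by diffSplice (log2 difference 0.52, adjusted p = 0.0609). Of these 6 probe sets 4 carry names that mark sequence shared with other transcripts, and they include both the highest and the lowest change.

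**Figure D1:**
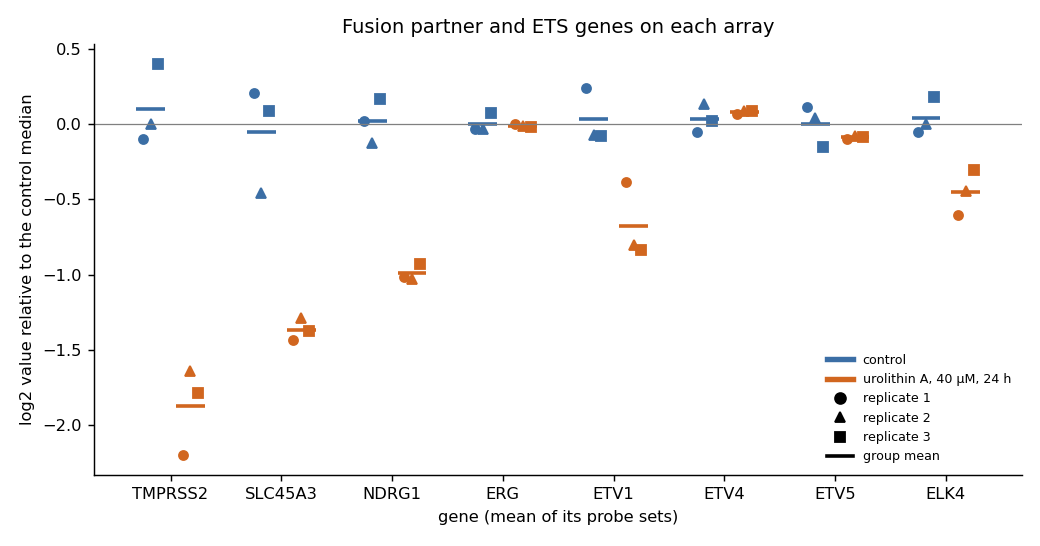
Log2 value with the control median at 0 (y axis) of the 8 measured genes (x axis), each the mean of its probe sets, on 3 control arrays (blue) and 3 urolithin A arrays (orange); marker shapes are replicate numbers and horizontal bars are group means. TMPRSS2, SLC45A3, NDRG1, ETV1 and ELK4 have all urolithin A arrays below all controls, from -2.20 in TMPRSS2 to -0.31 in ELK4, while ERG, ETV4 and ETV5 overlap.

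ETV1, the ETS gene that LNCaP cells carry at a foreign site, was lower as well. These values do not tell RNA of the inserted gene from any other ETV1 RNA. The gene-level values were 0.24, -0.07 and -0.08 in the controls and -0.38, -0.81 and -0.83 after urolithin A. Replicate 1 was the highest array of each group, and the groups did not overlap. The change was -0.71 (SE 0.14, 95% interval -1.02 to -0.40, adjusted p = 0.0143), or 1.63-fold lower. This call was lost without urolithin A replicate 2 (log2 change -0.64, adjusted p = 0.0524). It was also lost without control replicate 1 and urolithin A replicate 3 (log2 change -0.52, adjusted p = 0.105), and without control replicate 3 and urolithin A replicate 3, the arrays of lowest 18S RNA (log2 change -0.68, adjusted p = 0.0686).

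The 8 probe sets of ETV1 did not move together. Tested singly, 6 fell, with the largest change in 11748964_a_at, and 11745799_s_at, at -0.52, missed the threshold (adjusted p = 0.0674). The control values of 11748964_a_at were 0.20, -0.17 and 0.00 and its urolithin A values -0.87, -1.34 and -1.54, a fall of 2.39-fold (adjusted p = 0.0037). Probe set 11733183_x_at gave the tightest readings after urolithin A, between -1.01 and -0.92. The remaining probe set, 11733181_at, read 0.12, 0.00 and -0.13 in the controls and 0.85, -0.05 and 0.16 after urolithin A. Its groups overlapped, and urolithin A replicate 1 was by far its highest array. Its own change of 0.33 did not pass (adjusted p = 0.401), but it differed from the gene's other probe sets by 1.18 on the log2 scale (diffSplice adjusted p = 0.000392). That difference passed under each of the 14 alternatives run for it, with values from 1.05 to 1.32. Each of them counts the probe sets as independent, which was not tested. Which ETV1 transcripts each probe set detects is not given in the sources used here.

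ELK4, a ternary complex factor that acts with serum response factor, had gene-level values of -0.05, 0.00 and 0.18 in the controls and -0.60, -0.45 and -0.31 after urolithin A. The treated arrays lay below every control, with a smaller gap than in the other members that fell. The change of -0.49 (SE 0.10, adjusted p = 0.0147) is a 1.41-fold fall. Each fit that lacked a single array kept this call, with adjusted p up to 0.0476. Scaled on the hybridization controls, the change was -0.47 and the call was lost (adjusted p = 0.0649).

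The 4 probe sets of ELK4 split. Whether any of them reads the chimeric RNA with SLC45A3 is not given in the sources used here. Probe set 11734985_at read -0.08, 0.00 and 0.50 in the controls and -0.88, -0.93 and -0.71 after urolithin A, a fall of 1.97-fold (adjusted p = 0.0061). Probe set 11740791_at read -0.11, 0.00 and 0.07 in the controls and -1.21, -0.83 and -0.48 after urolithin A, a fall of 1.78-fold (adjusted p = 0.0185). Both were clearly below their controls in all treated arrays. Probe set 11740790_a_at also lay below its controls, at -0.35, -0.16 and -0.12 against -0.05, 0.00 and 0.45, but its change of -0.34 did not pass (adjusted p = 0.188). Probe set 11734984_a_at lay on the other side, at 0.02, 0.00 and -0.31 in the controls and 0.04, 0.13 and 0.09 after urolithin A. Its change of 0.18 did not pass (adjusted p = 0.365), and control replicate 3 was its lowest array. The difference of 11734984_a_at from the other ELK4 probe sets was 0.90 on the log2 scale (diffSplice adjusted p = 0.00493) and passed under all 14 alternatives run for it, with values from 0.67 to 1.14. All of these count the probe sets as independent, so they do not test that assumption. Probe set 11734985_at differed from the others by -0.65 (diffSplice adjusted p = 0.0451), a call lost in each of the 6 fits without an array (adjusted p from 0.0514 to 0.213).

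**Figure D2:**
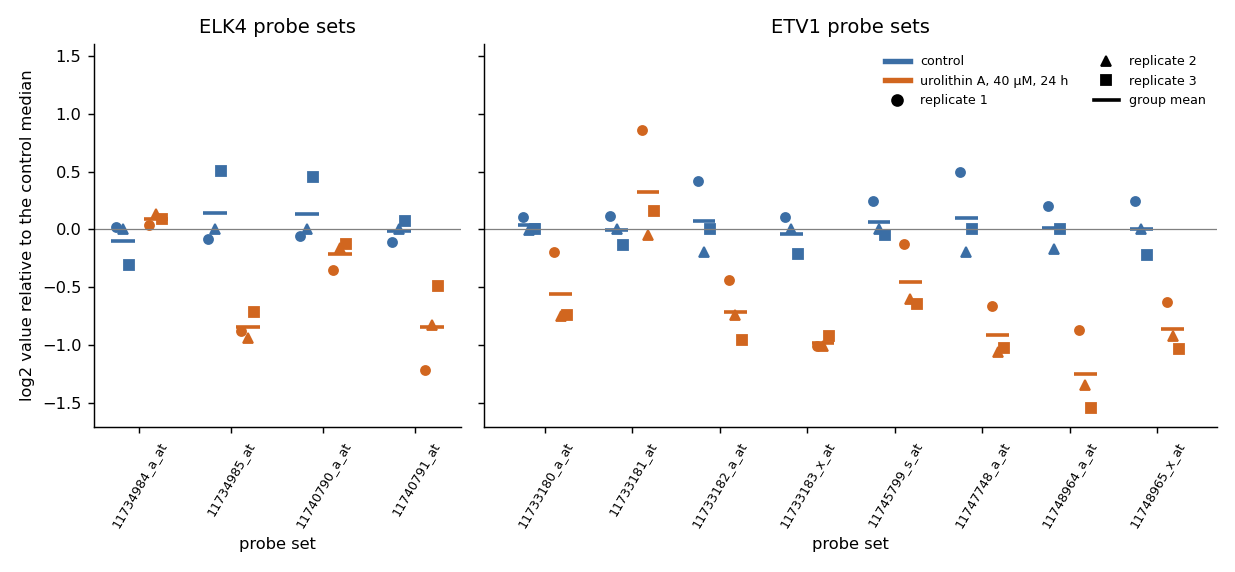
Log2 value with the control median at 0 (y axis) of each probe set (x axis) of ELK4 (left) and ETV1 (right) on the 6 arrays; colours, marker shapes and bars for group means are explained in the legend. In ELK4, 11734985_at, 11740791_at and, by less, 11740790_a_at lie below all controls, while 11734984_a_at lies above them; in ETV1, 7 of 8 probe sets lie below all controls, and 11733181_at overlaps them.

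Of the chromosome neighbours, ELK4 lies between SLC60A1 and SLC45A3, and SLC45A3 between ELK4 and NUCKS1, in the RefSeq annotation of GRCh38.p14. The outer genes of this row did not pass, with log2 changes of 0.08 for SLC60A1 (adjusted p = 0.621) and -0.08 for NUCKS1 (adjusted p = 0.539). TMPRSS2 was likewise flanked by genes that did not pass, MX1 (log2 change 0.24, adjusted p = 0.188) and RIPK4 (0.00, adjusted p = 0.996). Beside NDRG1, CCN4 had a change of 0.06 and ST3GAL1 one of -0.10, and neither passed. These neighbours were looked up after the members' values had been seen.

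ERG, the most common 3′ partner of fusions in prostate tumours, did not pass (log2 change -0.01, SE 0.06, 95% interval -0.16 to 0.13, adjusted p = 0.929). It read -0.03, -0.03 and 0.07 in the controls and 0.00, -0.01 and -0.02 after urolithin A, and the groups overlapped. LNCaP is not known to carry the TMPRSS2-ERG fusion, and these centred values cannot show whether ERG RNA was present. By limma 0 of its 12 probe sets passed (2 at an unadjusted p under 0.05), with changes from -0.28 in 11751747_a_at (adjusted p = 0.0957) to 0.26 in 11739356_a_at (adjusted p = 0.18). No ERG probe set stood apart from the others by diffSplice (smallest adjusted p = 0.0961).

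ETV4 and ETV5, the PEA3 factors beside ETV1, did not pass. ETV4 read -0.05, 0.14 and 0.02 in the controls and 0.07, 0.08 and 0.09 after urolithin A, with overlapping groups (log2 change 0.05, 95% interval -0.11 to 0.21, adjusted p = 0.751). ETV5 read 0.11, 0.04 and -0.15 in the controls and -0.10, -0.08 and -0.08 after urolithin A, also overlapping (log2 change -0.09, 95% interval -0.27 to 0.09, adjusted p = 0.57). Of the 4 ETV5 probe sets, 11748612_a_at had the lowest change, at -0.36 (adjusted p = 0.112), and the other 3 lay between -0.11 and 0.06. The interval of the ETV1 change, from -1.02 to -0.40, does not overlap those of ETV4 and ETV5.

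**Figure D3:**
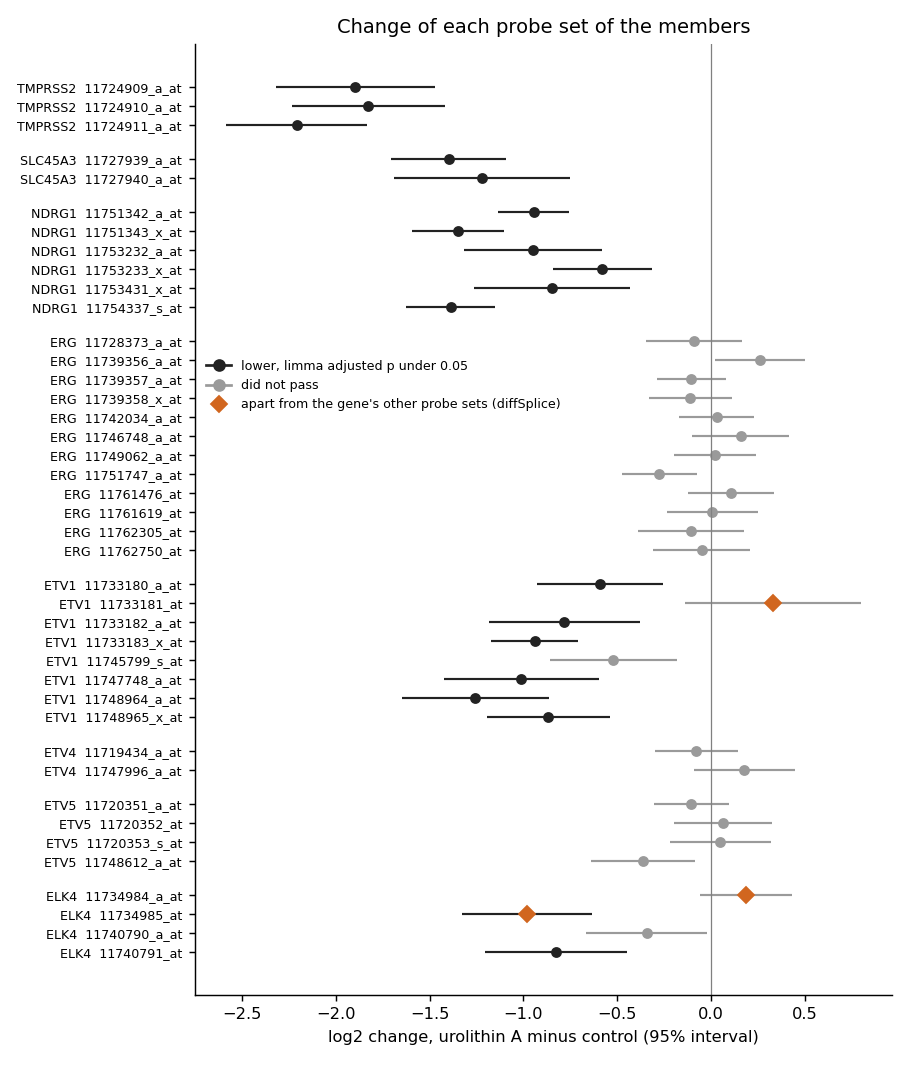
Log2 change, urolithin A minus control (x axis), of each of the 41 probe sets of the members (y axis) with its 95% interval; black points fell, grey points did not pass, and orange diamonds differ from the other probe sets of their gene. All 11 probe sets of TMPRSS2, SLC45A3 and NDRG1 lie to the left of 0, and the 12 of ERG scatter around it. The 3 diamonds among the 41 belong to ETV1 and ELK4, beside 4.84% of all probe sets tested.

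Of the member probe sets counted singly, 19 of 41 were lower, none higher and 22 did not pass. The 22 include 2 of ETV1 and 2 of ELK4, genes that were called lower. Gene values are means of these probe sets, so this count is not separate support. Of all single-symbol probe sets 8.51% changed, 4.44% lower and 4.06% higher, and all 3 urolithin A arrays lay outside the control range in 28.1% (13.6% below, 14.5% above), against 23 member probe sets below and 2 above. All of the 19 belong to TMPRSS2 (3), SLC45A3 (2), NDRG1 (6), ETV1 (6) and ELK4 (2). By diffSplice 3 of the 41 stood apart from their gene, beside 4.84% of all probe sets tested. By size the falls ran from TMPRSS2 over SLC45A3, NDRG1 and ETV1 to ELK4. The 95% intervals of each gene and the next in this order overlap, for example -2.35 to -1.60 for TMPRSS2 and -1.66 to -0.96 for SLC45A3. Such overlap does not show that the falls are equal, and their differences were not tested. The treated arrays themselves did not overlap between TMPRSS2, SLC45A3, NDRG1 and ETV1 in turn, and did so between ETV1 and ELK4.

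The genes with the most similar values over the 6 arrays were found by the root mean square difference from each member that fell, in log2 units. This measure includes the shift between the groups, so it favours genes with a change of similar size. Shared regulation was not tested. Nearest to TMPRSS2 were TM4SF1 (0.16), a membrane protein gene, GRM5P1 (0.16) and ARHGAP28 (0.20), and at least 2 of these 3 stayed nearest without any single array. Nearest to SLC45A3 were the kinetochore gene CENPN (0.12), IGSF5 (0.14) and the sialyltransferase gene ST6GALNAC1 (0.15). NDRG1 was closest to PDK3 (0.07) and PDK1 (0.09), both kinases that restrain pyruvate oxidation, and to SPDEF (0.10), itself an ETS gene. For ETV1 these were TAX1BP3 (0.08), DYNLL2 (0.10) and EPHA7 (0.12), and for ELK4 SMPD2, SLC38A2 and POP1 (each 0.04). Without single arrays as few as 0 of 3 nearest genes of NDRG1 and 1 of 3 of SLC45A3, ETV1 and ELK4 remained.

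The other 23 genes of the ETS family had a median log2 change of -0.06, with 1 lower, 1 higher and 21 short of the threshold. That is 8.7% called, beside 10.2% of all genes. SPDEF, the prostate-derived ETS factor of luminal cells, had a change of -1.12 (SE 0.12, adjusted p = 0.00124), a 2.17-fold fall. Its control arrays read 0.00, -0.18 and 0.32 and its urolithin A arrays -1.18, -1.04 and -1.01, with no overlap. ELF3, an epithelial ETS factor, rose 1.44-fold (log2 change 0.52, adjusted p = 0.0125). All 3 of its probe sets carry names that mark sequence shared with other transcripts. Over all 28 ETS genes, 3 fell, 1 rose and 24 did not pass.

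Among 8 further genes described as 5′ partners of ETS fusions (median -0.08), 2 fell and 1 rose. That is 37.5% of this short list, beside 10.2% of all genes. KLK2, an androgen-induced kallikrein, fell 4.19-fold, with controls at -0.26, 0.00 and 0.22 and urolithin A arrays at -2.25, -1.79 and -2.20 (adjusted p = 0.000315). Its fall and that of TMPRSS2 were of similar size, and the difference was not tested. The nucleotidase gene CANT1 fell 1.28-fold (adjusted p = 0.0409), a call that survived the removal of urolithin A replicate 3 but of no other array (adjusted p up to 0.126). The RNA helicase gene DDX5 rose 1.30-fold (adjusted p = 0.0117), but the size depends on its 5 probe sets: their median gave a change of 0.17 that missed the threshold (adjusted p = 0.118), and leaving out those with names of shared sequence gave 0.70 (adjusted p = 0.00235). HERPUD1, UBTF, FOXP1, HNRNPA2B1 and HMGN2P46 did not pass.

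Of 10 measured cofactors of androgen signalling, 1 rose (10% called, beside 10.2% of all genes), while the median change was 0.07. The acetyltransferase gene CREBBP rose 1.24-fold (adjusted p = 0.0487), and this call was kept under 1 of 18 alternatives only, the fit without urolithin A replicate 2. FOXA1, the pioneer factor of luminal cells, did not pass (log2 change 0.16, adjusted p = 0.183). Of 9 measured regulators of ETS proteins or genes, 2 rose and 7 did not pass (22.2% called, beside 10.2% of all genes). DET1, a partner of the ubiquitin ligase COP1 that degrades ETV1, rose 1.35-fold (adjusted p = 0.014), and the deubiquitinase gene USP9X rose 1.32-fold (adjusted p = 0.0132). Leaving out control replicate 1 gave DET1 an adjusted p of 0.0542, and leaving out urolithin A replicate 2 one of 0.0509. The call of USP9X was lost without control replicate 1 (adjusted p = 0.0503). COP1 itself (log2 change -0.07) and CIC, the repressor of PEA3 genes (0.38), did not pass (adjusted p = 0.598 and 0.0992).

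Genes of ERK feedback, which often move with PEA3 factors, were measured in 12 cases (median 0.00). Of them 1 fell (8.33% called, beside 10.2% of all genes). The feedback inhibitor gene SPRY1 fell 1.54-fold, from -0.04, 0.02 and 0.00 in the controls to -0.58, -0.67 and -0.65 (adjusted p = 0.000963). The phosphatase gene DUSP4 had the list's largest change, -0.79, with controls at 0.00, -0.07 and 0.62 and urolithin A arrays at -0.97, -0.65 and -0.21, which did not overlap, but it missed the threshold (adjusted p = 0.0577). DUSP6, a phosphatase gene that reads out ERK activity, was at 0.08 (adjusted p = 0.517), and both were named after their values were seen. Among 22 genes described as raised by ERG or ETV1 in prostate cells (median -0.04), 4 fell and 1 rose. That is 22.7% called, beside the same 10.2%. The phospholipase gene PLA1A fell 4.27-fold (adjusted p = 0.000246), the protease gene ADAMTS1 2.35-fold and the secreted protein gene CRISP3 1.62-fold, while MMP7, the matrilysin gene, named after its value was seen, fell by 0.68 on the log2 scale (adjusted p = 0.0134). Without the arrays of highest HLA-DRA, only PLA1A and ADAMTS1 of this list kept a call, and MMP7 did not. PLA1A read 0.00, -0.26 and 0.32 in the controls and -2.04, -2.20 and -1.98 after urolithin A. VIM, the vimentin gene, rose 1.48-fold (adjusted p = 0.0461), and kept its call without control replicate 2 only among the fits that lack an array (adjusted p up to 0.143 in the others).

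Of 4 genes in the region where ETV1 lies inserted in LNCaP cells and DGKB, its neighbour at the native site, 1 passed. That is 20% of the list, beside 10.2% of all genes. TTC6 had a change of -0.54 (SE 0.08, adjusted p = 0.00542), a 1.46-fold fall, and MIPOL1, SLC25A21, FOXA1 and DGKB did not pass. MIPOL1, the gene that hosts the insertion, read -0.05, -0.06 and 0.05 in the controls and -0.05, -0.13 and -0.26 after urolithin A, with overlapping groups (log2 change -0.13, adjusted p = 0.374). The change of DGKB was -0.15 (adjusted p = 0.298). The call of TTC6 was lost without control replicate 3 and urolithin A replicate 3 (adjusted p = 0.0526). Between ERG and TMPRSS2 on chromosome 21, in the stretch that fusions by deletion remove, 15 genes were measured. Of these 2 fell, 1 rose and 12 did not pass (20% called, beside 10.2% of all genes). IGSF5 fell 2.43-fold, from 0.06, -0.19 and 0.00 in the controls to -1.39, -1.34 and -1.24 (adjusted p = 0.000246). SH3BGR rose 1.81-fold (adjusted p = 0.000806), and FAM3B fell 1.28-fold (adjusted p = 0.0106) as a mean of 3 probe sets, whose median had a change of -0.05 (adjusted p = 0.697). Array scaling by hybridization control signal also ended its call (adjusted p = 0.364).

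Close relatives of the fusion partner genes were also measured. Of 27 members of the transmembrane serine protease, SLC45A, NDRG and ACSL families and the protease inhibitors SPINT1 and SPINT2, 2 fell and 25 did not pass (7.41% called, beside 10.2% of all genes). NDRG3 fell 1.26-fold (adjusted p = 0.0116), a call lost when probe sets with names of shared sequence were left out (log2 change -0.10, adjusted p = 0.562). TMPRSS11E fell 1.43-fold (adjusted p = 0.0227), which did not hold in 3 of 6 fits, those lacking control replicate 2 or 3 and that lacking urolithin A replicate 3 (adjusted p up to 0.0695). SPINT2, which inhibits TMPRSS2, did not pass (log2 change 0.12, adjusted p = 0.324), nor did hepsin (HPN), another prostate serine protease, at 0.20 (adjusted p = 0.142).

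**Figure D4:**
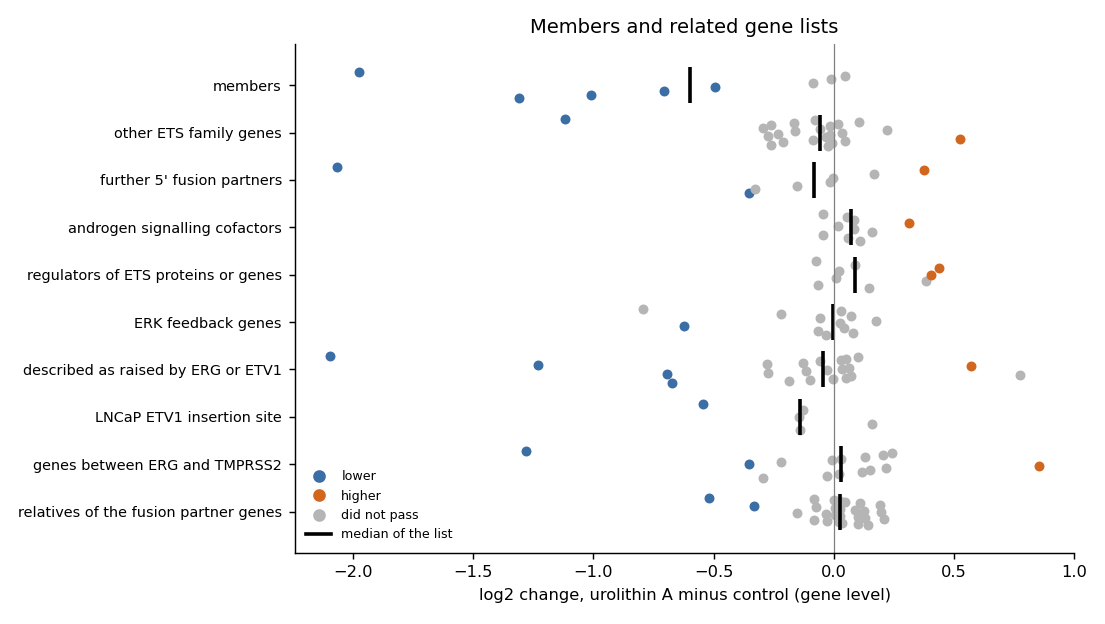
Gene-level log2 change, urolithin A minus control (x axis), of the 8 members and of the genes of 9 related lists (y axis); blue points fell, orange points rose, grey points did not pass, and black lines are list medians. The members' median lies at -0.60, while the medians of the other lists lie between -0.14 and 0.09.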

How the data were processed

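Total RNA of LNCaP cells was read on 6 arrays, 3 per group, grouped and numbered by the sample titles. The authors' deposited log2 values come from RMA (background correction, quantile normalization and probe set summary), as the submitters' processing notes name it without a version. In all 49386 probe sets the control median was exactly 0, which removes levels. Base 2 was assumed, since it is RMA's usual scale. The 45253 probe sets with a single annotated symbol were averaged to 18239 genes. Genes and single probe sets were tested two-sided for treatment alone by lmFit and eBayes of limma 3.58.1 (R 4.3.3), and diffSplice compared each probe set with the others of its gene. All p-values were adjusted by Benjamini-Hochberg over all features of a fit. The fits were also run on simulated data with independent noise in each value. Such data cannot test how diffSplice handles probe sets that vary together. Members, lists and tests were chosen with earlier results of these data known. Of each list, the text names up to 3 genes that passed in each direction, by smallest p, and others chosen after their values were seen, and for each member that fell the 3 nearest genes by pattern. Alternatives were a replicate block, other summaries of probe sets, priors, scalings, array weights and thresholds, and fits without arrays. Leaving out the array of highest HLA-DRA or of lowest 18S RNA from each group was added after the data were seen. Some entries of the lists are not analysed here. Array files and scan batches were not used here. Coordinates of promoter windows come from the RefSeq table, and none are given for probe sets.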

Additional observations from a re-analysis of the deposited data

How the results depend on the processing

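Of the 8 members, 5 changed, and 4 to 5 did so without single arrays; without moderation the count was 2 (TMPRSS2 and NDRG1) and at an adjusted p under 0.01 it was 3. TMPRSS2 and NDRG1 kept their calls under all 18 alternatives and SLC45A3 under 17, the exception being no moderation (adjusted p = 0.066). ETV1 kept its call under 13 and ELK4 under 14. Single probe sets called numbered 19, 14 to 18 without single arrays and 5 without moderation. Same-numbered arrays of the groups were not shown to be paired. Their deviations from the group means correlated at 0.0741, 0.0032 and 0.15, and those of arrays with unlike numbers at -0.118 to 0.05. These few values do not settle whether the arrays are paired. With the replicate number as a block, 1863 genes were called against 1854, 5 members were called, and 6 member probe sets in place of 3 stood apart from their gene (2 to 3 without single arrays). ERG turned from -0.01 to 0.013 with hybridization control scaling and to 0.024 without the arrays of lowest 18S RNA, and ran from -0.032 to 0.020 without single arrays, the last without control replicate 3; it passed under none of the 18 alternatives. The difference of ETV1 probe set 11733182_a_at from its gene turned from -0.09 to 0.038 without the arrays of highest HLA-DRA, and did not pass in either fit. ETV4 and ETV5 passed under none of the 18 alternatives.

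Counts in the lists moved as follows, the cause being untested beyond fewer arrays or stricter thresholds. The cofactor list had 1 call and 0 under 17 alternatives (0 to 1 without single arrays). The other ETS genes had 2 calls, 0 without moderation, 1 at the stricter threshold, with a 1.5-fold minimum or without either pair of arrays, and 2 to 4 without single arrays. Further fusion partners had 3 calls and 1 without moderation, with hybridization control scaling, at either stricter threshold and without the arrays of highest HLA-DRA. Regulators of ETS factors had 2 calls and 0 under these 5 settings and without the arrays of lowest 18S RNA (0 to 2 without single arrays). ERK feedback genes had 1 call and 2 with the replicate block, with hybridization control scaling, without the arrays of lowest 18S RNA, and 1 to 2 without single arrays. Genes described as raised by ERG or ETV1 had 5 calls, 2 without moderation, at 0.01 or without the arrays of highest HLA-DRA, 3 without those of lowest 18S RNA and 3 to 5 without single arrays. The insertion site list, with DGKB, had 1 call and 0 without moderation, with the 1.5-fold minimum or without the arrays of lowest 18S RNA. Relatives of the fusion partners had 2 calls, 1 without moderation or with hybridization control scaling, and 1 to 2 without single arrays. They had 0 without shared-sequence probe sets, at either stricter threshold or without either pair. In the first of these settings TMPRSS11E had no probe set left to test. Genes between ERG and TMPRSS2 had 3 calls, 3 to 4 without single arrays, 4 without shared-sequence probe sets, and 2 with the median of probe sets, with hybridization control scaling, at either stricter threshold or without either pair of arrays, FAM3B being the gene lost in each of these.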
